A study of Mus musculus with 12 samples.

Results

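The genes of cytosolic DNA and RNA sensing were followed in LPS-activated mouse B cells that received etoposide with or without an ATM inhibitor. Of the 10 genes named, the 9 with a matching symbol among the 29486 genes of the mRNAseq table were Mb21d1, Tmem173, Ddx58, Ifih1, Mavs, Tbk1, Zbp1, Aim2 and Samhd1. Trex1, a DNA exonuclease, was not analysed here. All 9 genes reached a level of at least 10 normalized counts in at least 1 condition, as 15572 genes of the table did.

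Cells hold few nucleic acids of foreign or damaged form in the cytosol, and a small set of receptors reacts when they appear. cGAS, the product of Mb21d1, binds double-stranded DNA and makes the messenger cGAMP, which activates STING, the product of Tmem173. RIG-I (Ddx58) and MDA5 (Ifih1) bind viral-type RNA and signal through MAVS, and both routes meet at the kinase TBK1, which phosphorylates the transcription factor IRF3 and so induces type I interferon. AIM2 assembles an inflammasome on DNA, ZBP1 binds nucleic acids in the Z form and engages RIPK3, and SAMHD1 hydrolyses deoxynucleotides and limits the nucleic acids that reach the sensors.

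Primary splenic B cells came from C57BL/6Babr mice, with an age of 8 to 12 weeks given for the mice of the study, and were isolated with a B cell kit. Cells of all 3 conditions were activated with LPS, a bacterial lipopolysaccharide that stimulates B cells through Toll-like receptor 4, at 10 μg/ml. The LPS condition had LPS for 48 h. The LE condition had LPS for 48 h and then etoposide, which traps topoisomerase II on broken DNA, at 20 μM for 4 h. The LEKU condition had LPS for 47 h, then the ATM kinase inhibitor KU55933 at 10 μM for 1 h, and then etoposide at 20 μM for 4 h. KU55933 without etoposide was not analysed here, and whether the LPS cells were kept for another 4 h is not stated in the labels. Each condition had 4 libraries, and the libraries of a condition carried sequencing indexes that no other condition carried, so index and condition cannot be told apart.

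The deposited values of a condition were 1 fitted mean per gene multiplied by a size factor of each library. They hold no spread between the 4 libraries, so that no replicate check and no p-value could be given for any difference below. Totals of the deposited values, in units of 1e6 counts, ran from 20.7 to 23.9 in LPS, from 22.5 to 30.6 in LE and from 20.4 to 25.1 in LEKU, and the size factors from 0.821 to 1.33. A level is the normalized count, the deposited value divided by the size factor. Intervals are at the 95% level and cover counting error only, which is smaller than the error between cultures. A difference is given on the log2(level + 1) scale, and a gene is counted as higher or lower where the difference was at least 1.5-fold. Because whole cell populations were sequenced, fewer cells of a type and less RNA per cell cannot be told apart.

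The 8 B cell markers checked were abundant in every condition. Their summed level was 554861 in LPS, 429344 in LE and 441155 in LEKU. In LE 5 of the 8 were lower than in LPS, where 16.5% of all genes were lower. T cell markers summed to 14.9, 16.0 and 15.2 in LPS, LE and LEKU, and none of the 6 reached a level of 10. The 9 macrophage markers, of which 6 reached a level of 10, summed to 420, 471 and 432. With etoposide 3 of these 6 were higher and 1 was lower, where 21.8% and 16.5% of all genes were. Cd14 had levels of 5.15, 24.0 and 40.2 in LPS, LE and LEKU, and Cd68 104, 210 and 174. Csf1r, also higher, reached a level of 10 only in LE, at 10.3 against 4.16 in LPS. Cd14 was below 10 in LPS and passed only through LE and LEKU. For both genes the filter itself favours a higher value in LE than in LPS. Itgam was lower, at 219, 128 and 114. C1qa, C1qb and Mertk stayed below 10 throughout. The 8 dendritic cell markers summed to 3044, 1988 and 3470, mostly from Flt3. Zbtb46 had levels of 103, 180 and 403, Ccr9 104, 88.1 and 101, and Xcr1 41.1, 69.4 and 44.8. Siglech, Itgax, Clec9a and Klk1 were below 10. The 4 natural killer cell markers with a row summed to at most 5.41 and the 5 neutrophil markers to at most 15.3, while the 5 red blood cell markers summed to 215, 145 and 106. The part of these other cells in the differences below was not tested.

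Most sensing genes were well expressed in activated B cells, and the DNA sensor cGAS was the exception. Per kb of exonic sequence, the scale on which genes can be compared, the order in LPS was Tmem173, Samhd1, Zbp1, Tbk1, Aim2, Ddx58, Mavs, Ifih1 and Mb21d1. Tmem173 had 1555 normalized counts per kb and Samhd1 1381, against a median of 128 over all genes that passed the filter. Mb21d1 had 6.75 normalized counts per kb, at percentile 13.4 of all genes, and the ratio of the highest to the lowest of the 9 genes was 230. The mRNA of STING, at percentile 94.2, thus stood near the top of the expressed genes, and that of the enzyme that makes its ligand near the bottom.

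**Figure D1:**
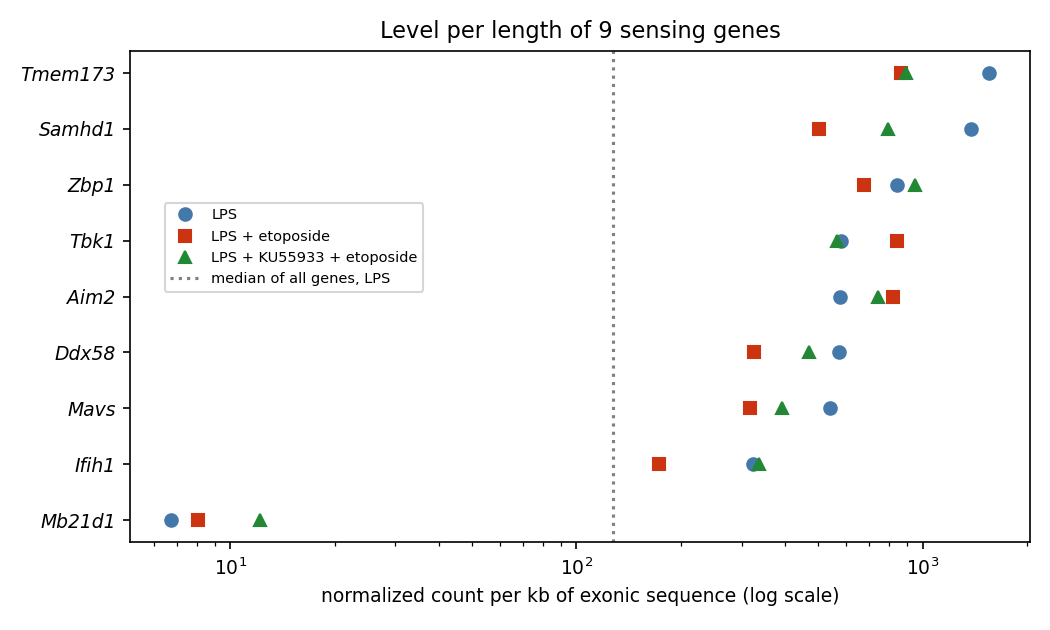
Level of each of the 9 sensing genes per kb of exonic sequence (normalized counts per kb, log axis) in LPS, LE and LEKU, 1 fitted mean per condition from 4 libraries. 8 genes lie above the dotted median of all genes in LPS (128 per kb) in every condition, and Mb21d1 lies far below it at 6.75 to 12.2.

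The order of the levels per kb differed between conditions. In LE it was Tmem173, Tbk1, Aim2, Zbp1, Samhd1, Ddx58, Mavs, Ifih1 and Mb21d1, and in LEKU Zbp1 came first, followed by Tmem173, Samhd1, Aim2, Tbk1, Ddx58, Mavs, Ifih1 and Mb21d1. Samhd1 thus stood at rank 2 in LPS, rank 5 in LE and rank 3 in LEKU. Neighbours whose counting intervals overlapped were Tbk1, Aim2 and Ddx58 in LPS, Tmem173, Tbk1 and Aim2 in LE, and Ddx58 and Mavs in LE, so their order is not resolved even by counting error. The ratio of the highest to the lowest gene was 107 in LE and 78.05 in LEKU. The upper end of the order depends on the length used: per kb of the longest transcript, Samhd1 was first in all 3 conditions, and Mb21d1 was last under both lengths.

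With etoposide, much of the set had lower levels than with LPS alone. Samhd1, Ifih1, Tmem173, Ddx58 and Mavs were lower by at least 1.5-fold, that is 5 of 9 genes, where 16.5% of all genes were lower. None of the 9 was higher by that margin, where 21.8% of all genes were higher. The median difference of the 9 genes was −0.77, against −0.02 over all genes. The lower genes held both RNA sensors and their adaptor, STING, and the deoxynucleotide hydrolase, while Tbk1 and Aim2 stood on the other side of 0.

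**Figure D2:**
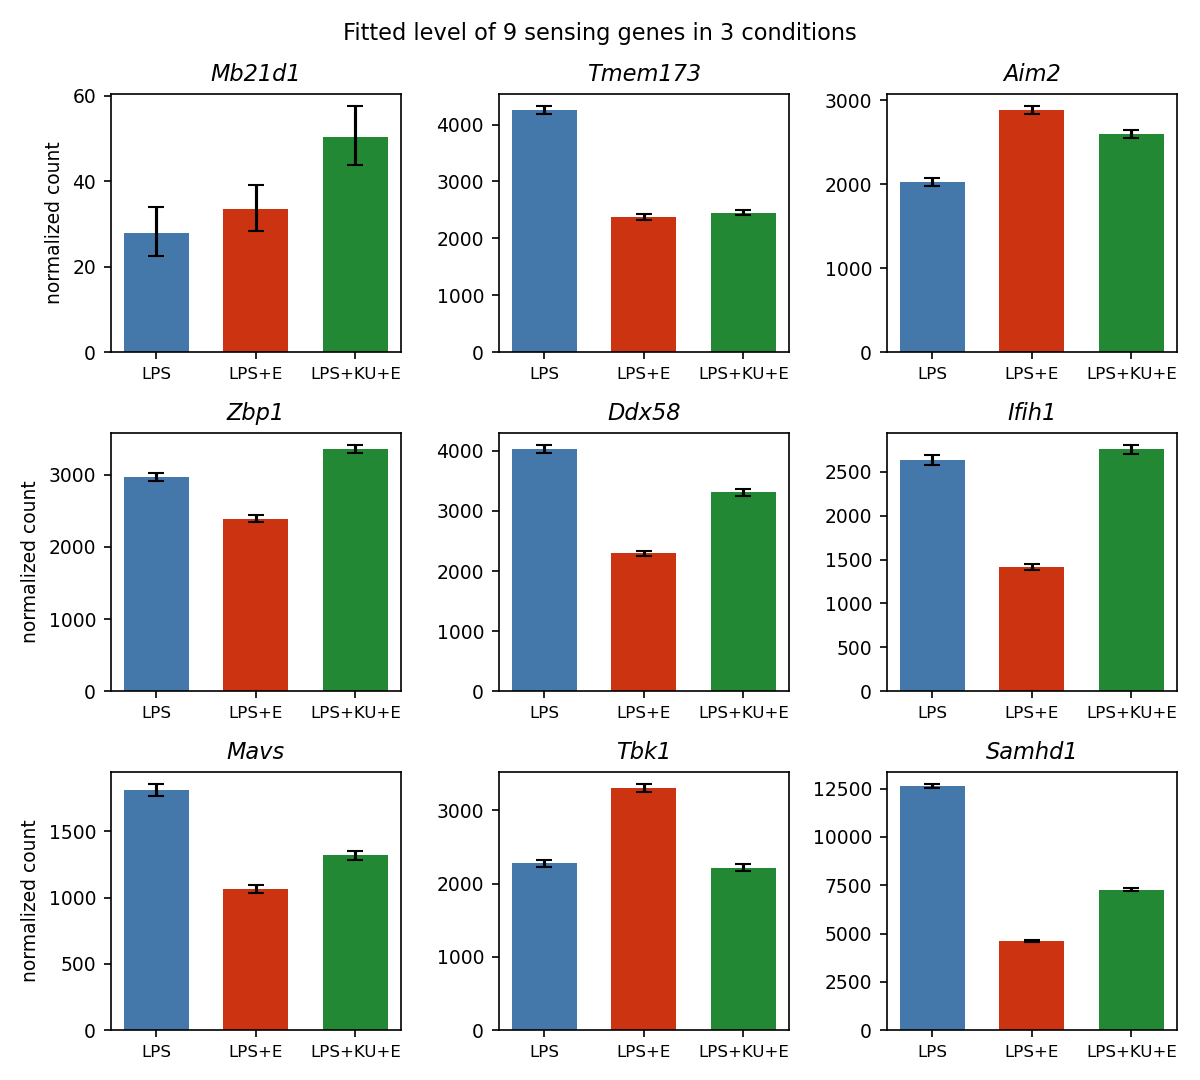
Level of each of the 9 sensing genes (normalized counts) in LPS, LE and LEKU, 1 fitted mean per condition, with bars for the 95% interval of counting error. Samhd1 goes from 12634 to 4608 and back to 7263, and Tbk1 from 2277 to 3308 and back to 2220.

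Samhd1 had the largest difference of the set. Its deposited values ran from 10370 to 11968 in the 4 LPS libraries, from 4507 to 6118 in LE and from 6655 to 8172 in LEKU, and within a condition these values differ only by size factor, so that their ranges carry no replicate error. The level was 12634 in LPS, 4608 in LE and 7263 in LEKU. The difference between LE and LPS was −1.45, with an interval of −1.48 to −1.43, or 2.74-fold lower, and only 1.80% of all genes lay lower in that comparison. With KU55933 the level was 1.58-fold higher than with etoposide alone (0.66, interval 0.63 to 0.68) and remained 1.74-fold lower than with LPS (−0.80, interval −0.82 to −0.78). Samhd1 thus took an intermediate level in LEKU.

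The RNA sensors had the same direction under etoposide and differed in how far they stood from LPS once the inhibitor was present. MDA5 (Ifih1) had deposited values of 2162 to 2495 in LPS, 1382 to 1875 in LE and 2526 to 3102 in LEKU, and levels of 2634, 1413 and 2757. Among the genes lower with etoposide, its LEKU level came closest to the LPS level, slightly above it. The difference was 0.07, with an interval of 0.03 to 0.10. With library totals and quantile normalization it was 0.25 and 0.27, and Ddx58 was then closer to LPS, at −0.10 and −0.03. Ifih1 was 1.86-fold lower in LE than in LPS (−0.90, interval −0.94 to −0.85) and 1.95-fold higher in LEKU than in LE (0.96, interval 0.92 to 1.01), a value above that of all but 2.00% of genes. RIG-I (Ddx58) had levels of 4034, 2295 and 3307. The difference was −0.81 (interval −0.85 to −0.78) between LE and LPS and 0.53 (interval 0.49 to 0.56) between LEKU and LE, just short of 1.5-fold. The adaptor Mavs, which sits on mitochondria and relays both RNA sensors, had levels of 1812, 1062 and 1317, with differences of −0.77 (interval −0.82 to −0.72) and 0.31 (interval 0.25 to 0.37).

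The values of STING with and without the inhibitor were close to each other. Tmem173 had deposited values of 3498 to 4037 in LPS, 2323 to 3153 in LE and 2247 to 2759 in LEKU, where the width of each range is that of the size factors alone. Its level was 4261 in LPS, 2375 in LE and 2452 in LEKU. The LE level was 1.79-fold lower than the LPS level (−0.84, interval −0.88 to −0.81), and LEKU and LE differed by 0.05, with an interval of 0.01 to 0.09. At the main scaling, the etoposide difference of Tmem173 was therefore present to almost the same size with KU55933.

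The partners of STING on the DNA route differed from it. Mb21d1 had levels of 27.8, 33.4 and 50.3, from 98.3, 149 and 210 fitted reads over the 4 libraries of LPS, LE and LEKU. The difference between LE and LPS was 0.25 with an interval of −0.11 to 0.62, so that no difference was detectable at this depth. The LEKU level was 1.78-fold higher than the LPS level (0.83, interval 0.49 to 1.18) and 1.49-fold higher than the LE level (0.58, interval 0.28 to 0.88), which is just under the 1.5-fold limit. On the opposite strand, 201 bases of its exons, or 4.87%, are shared with the pseudogene Gm8093, whose level was at most 1.27.

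Tbk1, the kinase on which both routes converge, ran against most of the set. It had levels of 2277 in LPS, 3308 in LE and 2220 in LEKU. The LE level was 1.45-fold higher than the LPS level (0.54, interval 0.50 to 0.58) and the LEKU level 1.49-fold lower than the LE level (−0.58, interval −0.61 to −0.54). Neither passed the 1.5-fold limit. LEKU and LPS differed by −0.04, with an interval of −0.08 to 0.01 that includes 0. Tbk1 was thus highest in LE, the condition in which Tmem173, Mavs, Ddx58 and Ifih1 were lowest.

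The remaining sensors, Aim2 and Zbp1, differed by less than 1.5-fold in every comparison. Aim2 had levels of 2027, 2886 and 2602, with a difference of 0.51 (interval 0.47 to 0.55) between LE and LPS and of −0.15 (interval −0.19 to −0.11) between LEKU and LE. Zbp1 had levels of 2972, 2393 and 3359, with differences of −0.31 (interval −0.35 to −0.27) and 0.49 (interval 0.45 to 0.53). Zbp1 was the gene of the set with the highest level per kb in LEKU, at 952 normalized counts per kb.

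**Figure D3:**
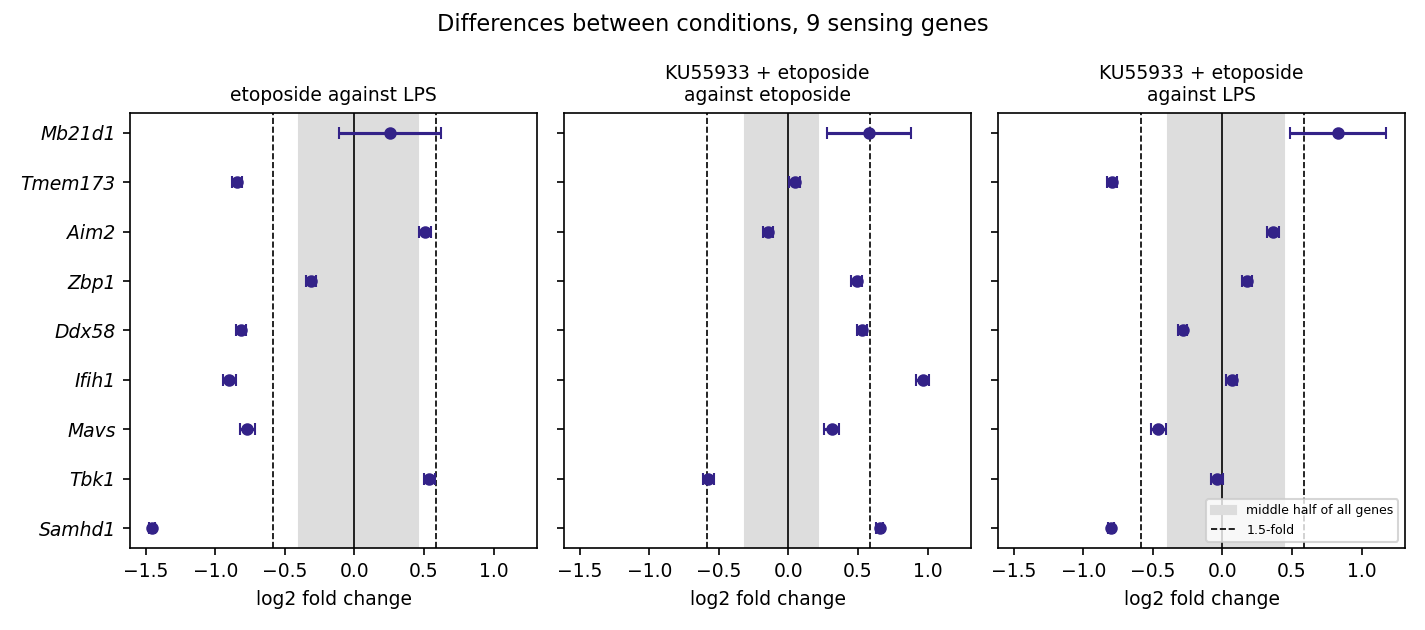
Differences (log2) of the 9 sensing genes in 3 comparisons, with bars for the 95% interval of counting error, the range between the quartiles of all genes in grey and the 1.5-fold limit dashed. With etoposide, 5 genes lie beyond the lower limit, and with KU55933 and etoposide against etoposide, Ifih1 and Samhd1 lie beyond the upper limit.

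With KU55933 and etoposide against etoposide alone, most of the set was higher. KU55933 without etoposide was not analysed here, so an effect on the etoposide response and an effect of the inhibitor itself cannot be told apart. Ifih1 and Samhd1 were higher by at least 1.5-fold, 2 of 9 genes where 7.06% of all genes were higher, and none was lower, where 11.8% of all genes were lower. The median difference was 0.49, against −0.04 over all genes, and 7 of the 9 genes had a difference above 0. Mb21d1, Ddx58, Zbp1 and Mavs were higher by less than 1.5-fold, and Tbk1 and Aim2 had differences below 0. Tbk1, at −0.58, and Mb21d1, at 0.58, lay closest to the limit of 0.585.

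Against LPS, the cells with KU55933 and etoposide had 1 gene higher, Mb21d1, where 20.2% of all genes were higher. Tmem173 and Samhd1 were lower, 2 of 9 genes where 16.1% of all genes were lower. The median difference was −0.04, against 0.01 over all genes. Ddx58 and Mavs had differences of −0.29 and −0.46, and Zbp1 and Aim2 of 0.18 and 0.36.

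The share of the etoposide difference that was still present with KU55933 is the difference between LEKU and LPS divided by that between LE and LPS. Both share the LPS libraries, so the share is a description. For Tmem173 it was 94.5% (interval 90.0 to 99.1), for Mavs 59.7% (interval 53.6 to 65.9), for Samhd1 54.9% (interval 53.5 to 56.3) and for Ddx58 35.2% (interval 31.5 to 38.9). For Ifih1 it was −7.29% (interval −11.9 to −2.72), since its level in LEKU was slightly above that in LPS. The 5 genes that were lower with etoposide thus spread from nearly the whole difference to none of it. These shares move with the scaling. With quantile normalization, the share was 82.8% for Tmem173, 51.2% for Mavs, 33.0% for Samhd1, 5.24% for Ddx58 and −35.1% for Ifih1. With library totals it was 86.6%, 43.6%, 46.6%, 15.3% and −32.4% in the same order.

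Scaling also decided calls near the limit. Library totals and quantile normalization put Tbk1 (0.67 and 0.65) and Aim2 (0.64 and 0.63) past 1.5-fold in LE against LPS, and quantile normalization turned the difference of Mb21d1 to −0.20. In LEKU against LE, TMM factors put Tbk1 past the limit at −0.59, library totals Mb21d1 at 0.63, and quantile normalization Mb21d1 at 0.73, Ddx58 at 0.62 and Zbp1 at 0.59. In LEKU against LPS, the difference of Tbk1 turned to 0.15 under both library totals and quantile normalization, and under the latter Mb21d1 (0.53), Tmem173 (−0.56) and Samhd1 (−0.39) fell inside the limit. The 5 genes lower in LE than in LPS stayed past the limit under all 3 scalings.

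On GRCm38, 4 of the genes lie on chromosome 2. Those are Ifih1 (ENSMUSG00000026896, chr2:62595798-62646255, minus strand), Mavs (ENSMUSG00000037523, chr2:131234063-131248025, plus strand), Samhd1 (ENSMUSG00000027639, chr2:157097533-157135265, minus strand) and Zbp1 (ENSMUSG00000027514, chr2:173206612-173218923, minus strand). Aim2 (ENSMUSG00000037860) lies at chr1:173350879-173466040 on the plus strand, Ddx58 (ENSMUSG00000040296) at chr4:40203773-40239828, Mb21d1 (ENSMUSG00000032344) at chr9:78430526-78443237 and Tbk1 (ENSMUSG00000020115) at chr10:121546455-121586787, the last 3 on the minus strand. The span of Aim2 overlaps Cadm3 on the opposite strand without shared exonic bases.

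Sequences before the start were examined for 7 of the genes in RefSeq promoters of GRCm38.p6, since many sensor genes are themselves induced by interferon. Those of Samhd1, Ifih1 and Tbk1 are shown because these genes had the largest difference with etoposide, the largest with KU55933, and the opposite direction in both. Each is the stretch of the 250 bases before the start that holds no annotated exon, 5′ to 3′ on the minus strand: chr2:157135266-157135346 for Samhd1, chr2:62646256-62646505 for Ifih1 and chr10:121586795-121587044 for Tbk1. Capitals mark a match to TTCNNNGAA.
Samhd1: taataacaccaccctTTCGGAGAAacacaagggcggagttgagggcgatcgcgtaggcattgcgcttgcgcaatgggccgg
Ifih1: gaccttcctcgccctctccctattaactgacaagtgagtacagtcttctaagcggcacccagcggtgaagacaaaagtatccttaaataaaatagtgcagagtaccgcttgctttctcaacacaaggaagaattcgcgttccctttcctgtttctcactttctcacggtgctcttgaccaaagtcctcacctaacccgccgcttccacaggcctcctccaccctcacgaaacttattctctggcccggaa
Tbk1: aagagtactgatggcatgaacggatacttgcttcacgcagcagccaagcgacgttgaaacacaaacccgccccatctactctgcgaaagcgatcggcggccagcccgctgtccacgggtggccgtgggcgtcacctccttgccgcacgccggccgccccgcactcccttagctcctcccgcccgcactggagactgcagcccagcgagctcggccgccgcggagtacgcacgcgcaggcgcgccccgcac

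The core of the interferon-stimulated response element, GAAA, any 2 bases and GAAA, was searched on both strands in the 250 bases before each start and was found in 0 of the 7 promoters, where 2.98% of 32851 promoters hold it. TTCNNNGAA, the core of the gamma-activated site, which reads the same on both strands, was found in 1 of 7, where 7.02% of all promoters hold it. The match was TTCGGAGAA in Samhd1, with its first base 235 bases before the RefSeq start. The RefSeq starts can differ from the ends of the gene spans given above. The bases searched were chr2:157135097-157135346 for Samhd1, which reach into its gene span, and chr1:173420354-173420603 for Aim2, which lie within its span. A match or its absence in this window says nothing about binding of a factor.

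Aim2 sits among its paralogues. The 7 PYHIN genes listed for this comparison, which are not all of the family, lie within chr1:173350879-174031810, a span of 681 kb. Aim2 had a difference above 0 between LE and LPS, and the 6 others listed were lower by at least 1.5-fold, where 16.5% of all genes were. Pyhin1 had levels of 9498, 2977 and 5431 in LPS, LE and LEKU, Ifi203 13041, 4510 and 5847, and Mndal 9293, 3844 and 4548. These are differences of −1.67, −1.53 and −1.27 between LE and LPS. With KU55933 and etoposide against etoposide alone, Pyhin1 was higher by at least 1.5-fold, at 0.87, and the others listed were not. Mndal overlaps Mnda and Ifi203, and reads shared between such similar genes make their single values uncertain.

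**Figure D4:**
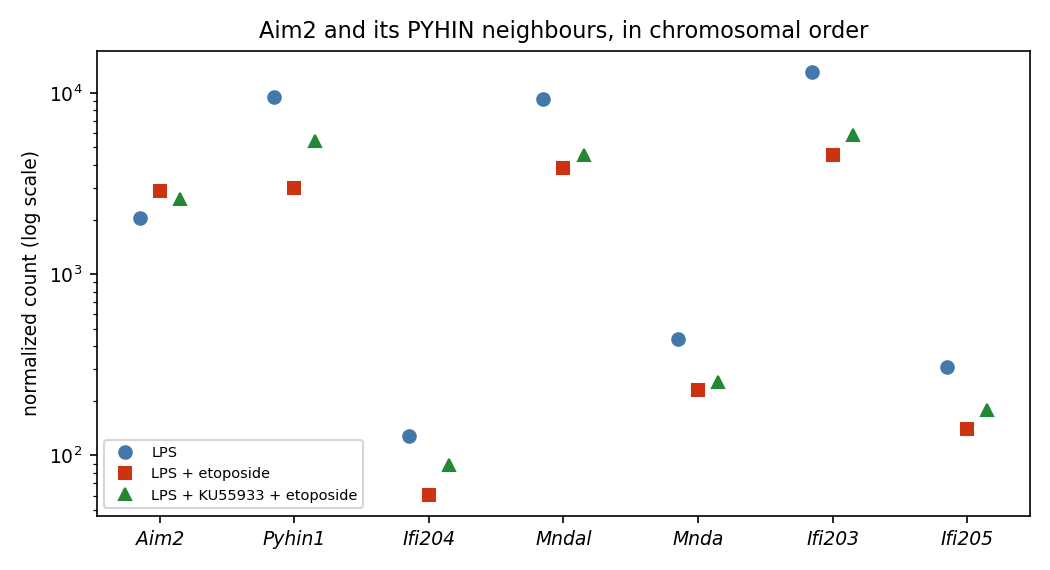
Levels (normalized counts, log axis) of 7 listed PYHIN genes of chromosome 1 in LPS, LE and LEKU, 1 fitted mean per condition. Aim2 is higher in LE than in LPS (2886 against 2027), and the 6 others are lower in LE.

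Other genes of the pathway, from lists written for this purpose, showed where the 9 genes resembled their neighbours. Of 16 other DNA sensors and PYHIN proteins, 8 were lower and 1 was higher in LE than in LPS, with a median of −0.59. Over all genes, 16.5% were lower and 21.8% higher. Beside the PYHIN genes, the lower ones were Hmgb1 and Hmgb2, chromatin proteins that also promote DNA recognition, at −0.73 and −0.85. In LEKU against LE only Pyhin1 was higher, where 7.06% of all genes were, and the list median was −0.03. Xrcc6, a subunit of Ku, had a difference of −0.44.

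Of 15 genes listed as other RNA sensors, 6 were lower and 3 were higher in LE than in LPS, with a median of −0.39. Over all genes, 16.5% were lower and 21.8% higher. The 3 higher genes were Prkra, Nlrp1b and Zcchc3, and Zcchc3 is also the 1 higher gene of the list of other DNA sensors. Nlrp1b was near the floor, with levels of 11.1, 19.6 and 6.91, and was also among the lower genes in LEKU against LE. Oasl2, Oasl1 and Oas3, members of the oligoadenylate synthetase family, had differences of −1.42, −1.17 and −1.14. Dhx58, the LGP2 helicase related to RIG-I and MDA5, had levels of 3261, 1917 and 2657, a pattern like that of Ddx58. In LEKU against LE, 2 of the 15 were higher and 2 lower, where 7.06% and 11.8% of all genes were. Oasl1 had levels of 1673 in LE and 6733 in LEKU, a difference of 2.01, and Oasl2 a difference of 1.24, while the helicase Dhx9 was lower, at −0.63.

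Downstream of the sensors, Ikbke, which encodes IKKε, the kinase most closely related to TBK1, had levels of 1223, 5393 and 3145. It was 4.41-fold higher in LE than in LPS and 1.71-fold lower in LEKU than in LE, and unlike Tbk1 it remained above its LPS level in LEKU, by 1.36 on the log2 scale. Trim32, a ubiquitin ligase of STING, had levels of 395, 1700 and 859. Of 21 adaptors, kinases and ubiquitin ligases, 3 were higher and 2 lower in LE than in LPS, where 21.8% and 16.5% of all genes were. In LEKU against LE, 3 were higher and 3 lower, where 7.06% and 11.8% of all genes were. The list medians were −0.03 and 0.07. Irf7, the interferon regulatory factor that amplifies interferon transcription, had levels of 2874, 2822 and 5343, so it differed only between LEKU and the other conditions, by 0.92 against LE. Rnf125, a ligase that limits RIG-I, had levels of 36.6, 36.6 and 108. Nfkb1, a subunit of NF-κB, was lower in LE than in LPS, at −1.14, and differed by 0.08 between LEKU and LE.

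The output genes of these routes had differences between LEKU and LE that reached beyond those of the sensing genes. Of 14 interferons and early output genes listed, 13 had a row and 8 reached a level of 10. One of them, Ifna4, reached a level of 10 only in LEKU, at 16.8 against 2.79 in LE, so the filter itself favours a higher value in LEKU. The 7 others were also higher in LEKU than in LE, where 7.06% of all genes were. They ran from 1.78-fold for Isg15, a ubiquitin-like modifier, to 18.4-fold for Cxcl10. Cxcl10, a chemokine, had levels of 113, 82.7 and 1537, and Ccl5 277, 222 and 1256. Ifit1, an interferon-induced RNA-binding protein, had 1484, 1327 and 5714. Ifit3 and Ifit2 followed Ifih1 more closely, with differences of −2.26 and −1.51 between LE and LPS and of 2.00 and 1.78 between LEKU and LE. The interferon transcripts themselves were scarce: Ifnb1, named after its values were seen, as was Ifna4, had levels of 1.15, 1.99 and 5.73.

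**Figure D5:**
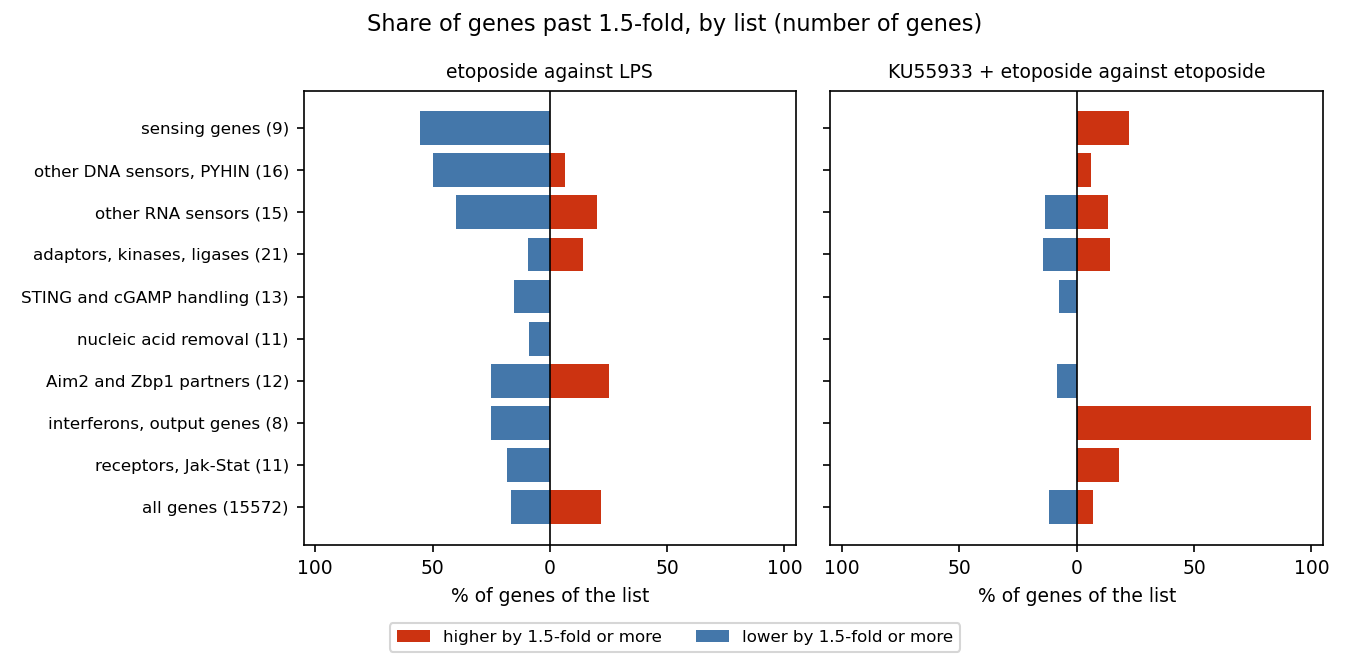
Share of genes (%) that were higher or lower by at least 1.5-fold, for the 9 sensing genes, 8 pathway lists and all 15572 genes, with etoposide against LPS and with KU55933 and etoposide against etoposide. The sensing genes and the other DNA sensors have the longest bars to the lower side with etoposide (5 of 9 and 8 of 16), and the 8 output genes lie on the higher side with KU55933, 1 of them, Ifna4, having passed the filter only through its level in LEKU. Among the Aim2 and Zbp1 partners, Nlrp3 passed the filter only through its level in LE.

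The genes most like Samhd1 and Ifih1 over the 3 conditions were found by their distance over the differences of LE and LEKU from LPS, among 10861 genes with a mean level of at least 100. Nearest to Samhd1 were Gm22175, Smim14 and Fam169b, at distances of 0.02, 0.04 and 0.05 on the log2 scale, and 8 genes lay within 0.1. Nearest to Ifih1 were Tmem123, Herc6 and Snapin, at 0.02, 0.07 and 0.07, and 12 genes lay within 0.1. Tmem123, for example, had levels of 12209, 6502 and 12925. These distances rest on 3 conditions only.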

How the data were processed

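mRNAseq was analysed from 12 mouse libraries, with 4 in each of the conditions LPS, LE and LEKU. Per the methods and the labels, TruSeq Stranded mRNA libraries were read for 100 bases from 1 end, trimmed with Trim Galore (cutadapt 1.2.1), mapped to GRCm38 with TopHat2 2.0.12, counted on Ensembl release 78 genes with HTSeq and fitted with DESeq2 1.6.3. The strand setting of the counting is not given in the sources used here, so a gene and its antisense partner may share reads.

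The authors deposited a signal for each gene and library, called a normalized count. Within a condition, the ratio of any 2 columns was constant over genes to 1.42e-14 on the log2 scale, so each is a fitted condition mean multiplied by a library size factor. The planned limma test needs spread between libraries and was not run. The files of the authors' comparisons hold a mean signal, fold changes, standard errors, scores and p-values. Only the mean signal of 1 was used, to recover size factors by least absolute deviations on 7629 genes with a mean above 500, with a median deviation of 0.0266%.

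Differences used a pseudocount of 1, over the 15572 genes with a level of at least 10 in 1 condition. A log2 fold change understates differences of low genes. Counting intervals are Poisson intervals on fitted reads summed over the 4 libraries. Exonic lengths were taken from GENCODE M21, and promoters from RefSeq. Scripts ran in Python 3.11.15, with pandas 2.3.3 and numpy 2.4.6, with scipy 1.17.1 for intervals and with matplotlib 3.10.9 for plots. The procedure was tested on simulated data of 29486 genes for etoposide against LPS. The 200 changed genes had a value of at least 100 and a set change of at least 2-fold. Of them 100% passed 1.5-fold, as did 0% of the unchanged genes with a value of at least 100. The spread between simulated libraries was small and set by assumption, since the deposited columns hold none. At that setting, changes of this size were bound to pass, so the result checks only the calculation. The simulation therefore does not cover low genes, differences near 1.5-fold or the error between real cultures.

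The members and lists were chosen with earlier results of these data known. Named genes are the members, up to 3 genes of each list with the largest differences in LE against LPS and in LEKU against LE at a level of at least 50, and the 3 nearest genes to Samhd1 and Ifih1. Hmgb1, Hmgb2, Dhx58, Zcchc3, Prkra, Nlrp1b, Isg15, Ifna4, Ifnb1, Ripk1, Casp1, Mlkl and Nlrp3, and single markers, were named after their values were seen. Alternatives were TMM factors (trims of 30% and 5%), library totals, quantile normalization, a minimum of 50 or no filter, pseudocounts of 0.5 and 5, a limit of 2-fold, and the longest transcript as length. Results for some genes of the lists are not reported here.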

Additional observations from a re-analysis of the deposited data

How the results depend on the processing

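No paired analysis was possible because the deposited columns hold 1 fitted mean per condition, and leaving out single libraries was not run for the same reason. No difference of a called gene reversed. Of 32 single-gene differences and shares, 1 moved by more than its counting interval with TMM factors, 28 with library totals and 29 with quantile normalization, and none with a pseudocount of 5. Of the 27 differences, none moved so with a pseudocount of 0.5, no filter or a minimum of 50, which were not run on the shares. Library totals shifted the median of all genes by 0.13 in LE against LPS and by 0.18 in LEKU against LPS.

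In LE against LPS, 2 sensing genes were higher with library totals and 2 with quantile normalization, in place of 0, and a 2-fold limit left 1 lower in place of 5. Over all genes, 3387 were higher and 2572 lower, against 2176 higher with a minimum of 50, and 2201 higher and 949 lower at 2-fold. In LEKU against LE, 5 sensing genes were higher with quantile normalization and 0 at 2-fold, in place of 2, and 1 was lower with TMM factors. All genes gave 1099 higher and 1830 lower, against 1181 lower with a minimum of 50, and 271 higher and 723 lower at 2-fold. In LEKU against LPS, 0 sensing genes were higher and 0 lower with quantile normalization and at 2-fold, in place of 1 and 2. All genes gave 3141 higher and 2505 lower, against 2073 higher with a minimum of 50, 1702 higher and 941 lower at 2-fold, and 1629 lower with library totals. A higher limit or minimum passes fewer genes by construction, and otherwise the cause was not tested.

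The share of higher genes among those past 1.5-fold was 56.8% in LE against LPS, 37.5% in LEKU against LE and 55.6% in LEKU against LPS. It was 67.7%, 44.1% and 71.8% with library totals and 46.1%, 48.4% and 50.4% with quantile normalization. With the longest transcript as length, the ratio of the highest to the lowest sensing gene was 468 in LPS and 149 in LEKU, in place of 230 and 78.05. Depth limits Mb21d1 most, since its levels rest on 98.3 to 210 fitted reads.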

Other observations

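Of 12 genes that act with AIM2 and ZBP1 in cell death, 3 were higher and 3 lower by at least 1.5-fold in LE than in LPS, where 21.8% and 16.5% of all genes were. In LEKU against LE 0 were higher and 1 was lower, where 7.06% and 11.8% of all genes were. Nlrp3, among the 3 higher and the 1 lower, passed the filter only through LE, with levels of 3.66, 15.2 and 6.99 in LPS, LE and LEKU. Both of its calls are thus favoured by the filter. Il1b, the inflammasome product interleukin-1β, had levels of 22.4, 142 and 184 in LPS, LE and LEKU. Pycard, the adaptor that links AIM2 to caspase-1, had levels of 833, 418 and 364, and Casp8, the initiator caspase that restrains necroptosis, 2550, 1442 and 1488. Ripk3, the kinase that ZBP1 engages, had 1072, 1688 and 1136, highest in LE. Casp1, Ripk1 and Mlkl, named after their values were seen, differed by less than 1.5-fold, with differences of −0.19, −0.14 and 0.28 between LE and LPS.

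Of 11 interferon receptors and Jak-Stat genes, 2 were lower in LE than in LPS, where 16.5% of all genes were. In LEKU against LE 2 were higher, where 7.06% of all genes were. Jak1 had levels of 11839, 4995 and 4603, so it was lower with etoposide under either condition. Stat2 had levels of 6326, 2808 and 5495, lowest in LE, and Jak2 had 1954, 1807 and 3326, highest in LEKU. Ifnar1, a subunit of the type I interferon receptor, had 3178, 2885 and 3930.

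Of 13 genes that handle STING and cGAMP and passed the filter, 2 were lower in LE than in LPS, where 16.5% of all genes were lower: Slc19a1, a carrier that imports cyclic dinucleotides, at −0.63, and Insig1, at −0.62. Enpp1, which degrades cGAMP outside the cell, was lower in LEKU than in LE, at −0.61. Of 11 nucleic acid removal genes, only Rnaseh2b, a subunit of ribonuclease H2, was lower in LE, at −0.78, where 16.5% of all genes were. None passed 1.5-fold in LEKU against LE, where 7.06% of all genes were higher and 11.8% lower. Dnase2a and Dnase1l3 had differences of 0.56 and 0.53 in that comparison.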
